A study of Homo sapiens with 9 samples.

Results

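The genes described here are 55 genes of the cell division cycle, 22 of them for DNA replication and 33 for mitosis, chosen by symbol among the 24069 rows of an RNA-seq table. Of the 55, 52 had a row of their own. CCNA2, BUB1B and CENPE lay in combined rows, with BBS7, PAK6 and BDH2, and values of such a row cannot be split between its genes. The 9 libraries came from 3 related lines, with 3 libraries lettered A, B and C in each. LC2 is parental LC-2/ad, a cell line derived from a human lung adenocarcinoma that carries a CCDC6-RET gene fusion. PR1 and PR2 are derivatives of it that grow in 200 nM ponatinib, which inhibits RET and several other kinases. The labels give no drug for LC2, so drug presence and resistance cannot be told apart in any comparison with it, and they do not say whether the derivatives are single clones. Nothing says that the letters are separate cultures, so a p-value here reflects library-to-library spread alone, and that spread may be technical.

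Cells copy their genome once per cycle and then divide it. In G1, MCM helicases are loaded at origins, and in S phase CDC45 and the GINS complex turn them into moving helicases while ribonucleotide reductase, thymidylate synthase and thymidine kinase supply the building blocks. Transcription of these genes is driven largely by E2F factors. Later in the cycle the MuvB complex, with MYBL2 and FOXM1, switches on cyclin B, CDK1, the Aurora and Polo kinases and the spindle machinery, often through a promoter element called the cell cycle genes homology region (CHR) next to CCAAT boxes bound by NF-Y. In resting cells, or when p53 raises p21 (CDKN1A), both groups are repressed. In bulk RNA, a smaller share of cells in S phase or mitosis cannot be told apart from less of these RNAs in each cycling cell.

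The promoters of replication and of mitosis genes held different motif spellings. RefSeq starts (GRCh38.p14, 250 bases before to 50 after the start) matched 46 of the 55 members, 19 for replication with 26 starts and 27 for mitosis with 36 starts. No entry was found for MCM4, MCM5, CCNE2, FOXM1, AURKA, TTK, UBE2C, BIRC5 and TPX2. The 4 E2F spellings (TTTCCCGC, TTTGGCGC, TTTCGCGC and TTTGCCGC, both strands) were found in 13 of 26 replication starts, in 11.1% of mitosis starts and 3.31% of all 35116 starts in the table. The CHR spelling TTTGAA was found in 3.85% of replication starts, 55.6% of mitosis starts and 15.2% of all starts. Its variant TTTAAA, which reads the same on both strands, was in 19.2%, 36.1% and 12.2%. CCAAT was common to both groups, at 73.1% and 77.8% against 34.6% of all starts. No spelling contains another, and a match describes letters in a window, not a bound site.

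Shown here are the members whose RNA differed most between the A and B libraries, as described further on, among those with an E2F or CHR spelling within 120 bases before to 30 after a start. Capitals mark those spellings on either strand, and each run reads 5′ to 3′ along the gene. The first 4 belong to replication and the other 4 to mitosis.
RRM2: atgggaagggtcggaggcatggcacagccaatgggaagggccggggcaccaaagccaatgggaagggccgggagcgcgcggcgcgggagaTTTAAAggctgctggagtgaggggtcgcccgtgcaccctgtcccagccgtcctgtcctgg
CDC6: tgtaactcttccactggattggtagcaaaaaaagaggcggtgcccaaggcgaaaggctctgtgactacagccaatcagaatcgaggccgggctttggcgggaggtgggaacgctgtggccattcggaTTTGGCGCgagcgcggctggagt
TYMS: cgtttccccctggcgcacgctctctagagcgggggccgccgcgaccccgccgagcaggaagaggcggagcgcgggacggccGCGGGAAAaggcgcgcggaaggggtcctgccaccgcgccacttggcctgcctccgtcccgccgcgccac
CDC45: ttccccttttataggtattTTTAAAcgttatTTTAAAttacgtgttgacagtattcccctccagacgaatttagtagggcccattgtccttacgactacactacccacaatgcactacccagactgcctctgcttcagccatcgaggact
ANLN: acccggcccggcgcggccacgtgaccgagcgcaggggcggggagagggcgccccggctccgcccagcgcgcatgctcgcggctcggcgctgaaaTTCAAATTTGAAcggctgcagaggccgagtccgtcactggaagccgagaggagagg
CDC20: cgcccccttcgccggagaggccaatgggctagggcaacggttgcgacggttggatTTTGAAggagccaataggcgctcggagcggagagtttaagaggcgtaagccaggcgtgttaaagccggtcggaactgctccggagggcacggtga
MKI67: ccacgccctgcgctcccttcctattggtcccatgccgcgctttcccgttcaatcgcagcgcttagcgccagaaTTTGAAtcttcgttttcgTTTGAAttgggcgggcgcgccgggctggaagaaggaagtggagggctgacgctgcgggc
PLK1: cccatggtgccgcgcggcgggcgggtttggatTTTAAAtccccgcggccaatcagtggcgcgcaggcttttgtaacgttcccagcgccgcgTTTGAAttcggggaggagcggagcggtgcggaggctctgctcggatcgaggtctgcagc
In GRCh38.p14 these runs are RRM2 chr2:10122619-10122768, CDC6 chr17:40287759-40287908, TYMS chr18:657533-657682, CDC45 chr22:19479346-19479495, ANLN chr7:36389742-36389891, CDC20 chr1:43358861-43359010, MKI67 chr10:128126394-128126543 and PLK1 chr16:23678769-23678918, with MKI67 on the minus strand and the others on the plus strand. RRM2 and CDC45, although replication genes, showed TTTAAA and no E2F spelling here, while CDC6 and TYMS showed an E2F spelling. TTTAAA stood 30 bases before the start in RRM2 and 101 and 89 before in CDC45. The E2F spelling stood 39 before in TYMS and 7 after in CDC6. All 4 mitosis runs held TTTGAA, which stood 29 bases before the start in PLK1, 65 before in CDC20, 47 and 29 before in MKI67, and 26 and 20 before in ANLN. Within 100 bases before to 50 after the start, TTTGAA was in 0 of 26 replication starts, 18 of 36 mitosis starts and 6.84% of all starts, and E2F spellings were in 13 of 26, 1 of 36 and 1.68% of all. CDC45 is shown at the one of its starts that held a spelling.

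**Figure D1:**
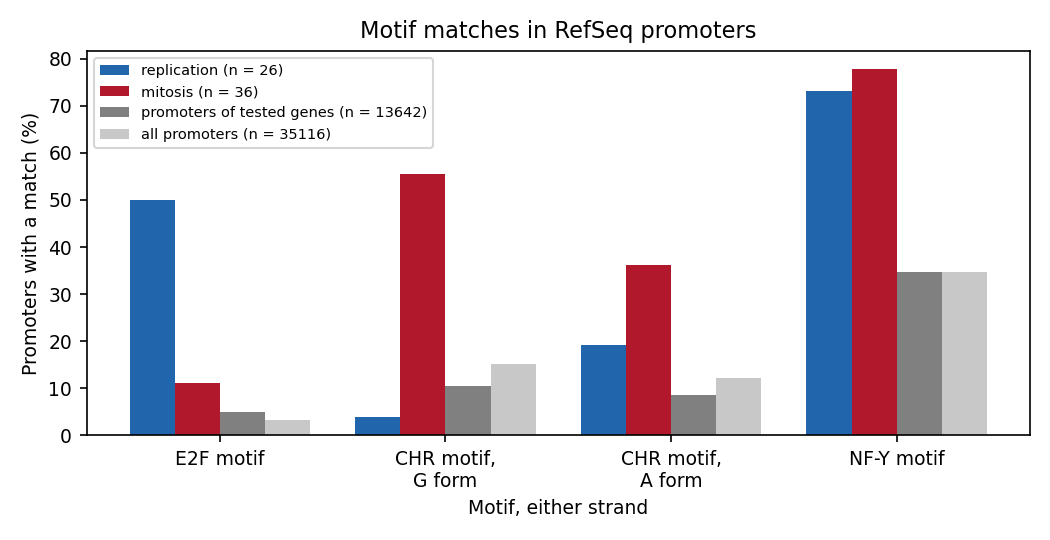
Share of RefSeq starts (y axis, percent, from 0) whose window from 250 bases before to 50 after the start holds a motif on either strand, for 26 replication starts, 36 mitosis starts, 13642 starts of tested genes and all 35116 starts. The E2F bar is tallest for replication, with 13 of 26 starts, the G form of the CHR motif is tallest for mitosis at 55.6%, and the NF-Y bars of both classes are near each other at 73.1% and 77.8%.

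The libraries held the RNA of an epithelial line. KRT8 reached 2622 FPKM (fragments per transcript length, scaled to the library total), all 6 epithelial markers passed the expression filter, and 6 of 8 fibroblast, 6 of 7 blood cell and 2 of 4 endothelial markers stayed under 1 FPKM in every library. The exceptions were low, with COL1A1 at most 10.04, CD14 at most 8.999 and KDR at most 6.46 FPKM, and the epithelial KRT18 was itself low, at most 8.17. Summed blood cell markers were 3.69 to 9.29 FPKM in LC2, 1.203 to 1.84 in PR1 and 0.797 to 1.35 in PR2, through CD14, and summed fibroblast markers 5.49 to 9.51, 6.22 to 8.98 and 9.97 to 11.3. Their part in the results was not tested. Absolute depth is unknown, but single-fragment steps of low genes put the libraries at 0.753 to 1 of the depth of LC2 A. A was the deepest library of each line (1, 0.986 and 0.943), with B at 0.801, 0.771 and 0.753 and C at 0.832, 0.976 and 0.801 in LC2, PR1 and PR2.

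All 55 members were expressed above the filter (1 FPKM or more in at least 3 of 9 libraries). FPKM is scaled to length, so levels of different genes can be set side by side. The highest means in LC2 were those of PTTG1 (securin, the inhibitor of separase; 179 ± 95.8 FPKM, SD, n = 3), TK1 (thymidine kinase) at 149, MCM7 at 129 and UBE2C (an E2 enzyme of the anaphase-promoting complex) at 107. The lowest were E2F2 at 2.49, MCM10 at 2.62 and CDC25A at 4.42 FPKM. In PR2 the top 4 were the same genes, led by TK1 at 158, and in PR1 CCNB1 (cyclin B1) at 136 took the place of PTTG1.

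As a class, replication genes had a mean log2(FPKM + 1) of 4.999, 4.37 and 4.17 in LC2 A, B and C, 5.23, 4.14 and 4.82 in PR1, and 4.81, 4.31 and 4.50 in PR2. Mitosis genes stood at 5.48, 4.70 and 4.13 in LC2, 5.57, 4.75 and 5.27 in PR1, and 5.76, 4.69 and 4.79 in PR2. In both classes the A library was the highest of its line, and the ranges of the 3 lines overlapped. The SD over a line's 3 libraries was 0.25 to 0.55 for replication and 0.42 to 0.68 for mitosis. Line means lay at most 0.22 and 0.43 apart.

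**Figure D2:**
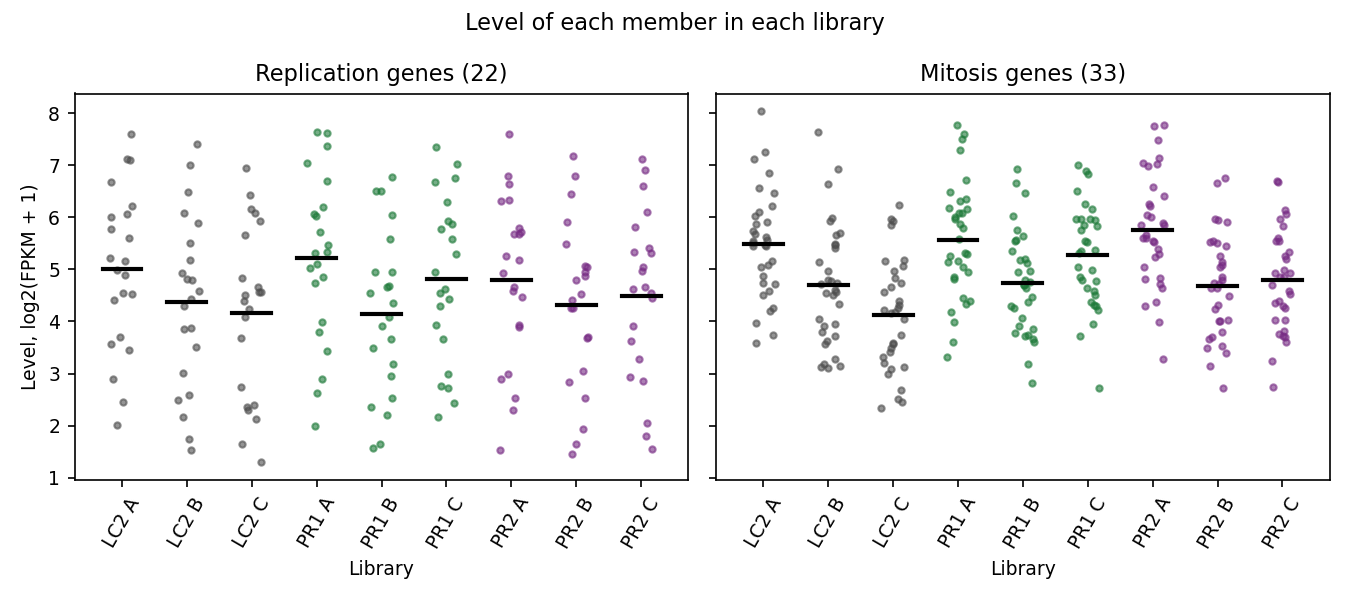
Level of each member, log2(FPKM + 1) on the y axis, in each of the 9 libraries, for 22 replication genes (left) and 33 mitosis genes (right). Points are genes and the bar is their mean, which in both panels is highest in the A library of each line, for mitosis 5.48, 5.57 and 5.76.

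PR1 against LC2 asks what sets the first derivative apart from its parent. Fitted without a term for the letter, no replication gene and no mitosis gene passed the test (0 of 22 and 0 of 33, limma adjusted p under 0.05 over all 12011 rows tested), while 15.5% of all rows did (7.56% higher and 7.98% lower in PR1). At an unadjusted p under 0.05 (limma) there were 0 replication genes and 1 mitosis gene, against 3555 of the 12011 rows. The median log2 difference, PR1 minus LC2, was 0.21 for replication (16 of 22 above 0) and 0.44 for mitosis (30 of 33 above 0). Over all 12011 rows tested it was 0.05 (6570 above 0). In none of the 55 were the 3 PR1 libraries all above or all below the 3 LC2 libraries, a separation found with PR1 higher in 16.6% and with PR1 lower in 15% of all rows.

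Among replication genes the largest positive differences in PR1 belonged to TYMS (thymidylate synthase), GINS1 (a subunit of the GINS complex) and RRM1 (the large subunit of ribonucleotide reductase), at log2 0.81 ± 0.46 (SE), 0.72 ± 0.34 and 0.55 ± 0.37. GINS1 was at 9.96, 4.65 and 3.95 FPKM in LC2 A, B and C and at 13.0, 6.77 and 11.6 in PR1. Each PR1 library was above the LC2 library of its letter, and PR1 B lay within the LC2 range. TK1, MCM2 (a helicase subunit) and CCNE2 (cyclin E2) had the most negative ones, at −0.17, −0.09 and −0.08.

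Among mitosis genes ANLN (anillin, a scaffold of the contractile ring) differed most, at log2 1.30 ± 0.55 (limma adjusted p = 0.15), followed by CDC20 (the activator of the anaphase-promoting complex) at 0.81 and CENPF (a kinetochore protein) at 0.80. PTTG1 went furthest the other way, at −0.55 ± 0.46, and HMMR and CDC25C were at −0.07. PTTG1 read 263, 199 and 74.3 FPKM in LC2 and 157, 88.0 and 89.3 in PR1, so that LC2 C alone was below the PR1 range. MKI67 (Ki-67, the usual marker of cycling cells) was at 33.0, 12.9 and 8.17 FPKM in LC2 and 27.0, 15.7 and 27.9 in PR1, with overlapping ranges (log2 0.55 ± 0.51, limma adjusted p = 0.52).

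Over all rows, same-letter deviations of PR1 and LC2 from their line means correlated, at 0.31, 0.48 and 0.16 for A, B and C. The class means of the members did not follow this in C. LC2 C lay below its line mean (replication 4.17 against 4.51, mitosis 4.13 against 4.77). PR1 C lay above its own (4.82 against 4.73 and 5.27 against 5.20). With the letter as a block, 25.7% of all rows passed, and among the members GINS1, TYMS, TPX2 (a spindle assembly factor), PRC1 (a crosslinker of the central spindle) and ANLN rose, with limma adjusted p of 0.024, 0.037, 0.029, 0.040 and 0.013. The letters were far from alike. Within letter C all 55 members were higher in PR1 than in LC2, by a median log2 of 0.55 for replication and 1.12 for mitosis. Over all rows 51.4% were higher there, with a median of 0.02. Within letter B the medians were −0.18 and 0.03, beside 0.04 for all rows, and within letter A 0.26 and 0.09, beside 0.05. Without the A libraries, GINS1, the CENPE row, CENPF, KIF11 (a spindle kinesin), TPX2 and ANLN passed, all higher in PR1, with 20.1% of all rows.

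PR2 against LC2 asks the same of the second derivative, and shares the LC2 libraries with the comparison just given. 1 replication gene, TYMS, and 1 mitosis gene, ANLN, rose (1 of 22 and 1 of 33, limma adjusted p under 0.05), and none fell. Over all rows 23.4% passed, 13.6% higher and 9.83% lower, beside which 2 of 55 members is a low count, a difference that was not tested. The median log2 difference was −0.10 for replication and 0.31 for mitosis, beside 0.03 for all rows.

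TYMS makes the thymidylate used for DNA synthesis and is the target of fluoropyrimidines. Its values were 20.2, 10.3 and 5.64 FPKM in LC2, 33.4, 11.7 and 18.7 in PR1, and 54.7, 26.7 and 30.3 in PR2. The lowest PR2 library was above the highest LC2 library, and PR1 lay across both. The means were 12.0 ± 7.42, 21.3 ± 11.1 and 37.2 ± 15.2 FPKM (SD, n = 3), and the rise from LC2 to PR2 was 1.64 ± 0.46 on the log2 scale (limma adjusted p = 0.028).

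ANLN stood at 46.5, 14.1 and 10.2 FPKM in LC2, 66.4, 30.4 and 56.0 in PR1, and 129, 42.9 and 56.0 in PR2. PR2 B lay below LC2 A, so the groups overlapped, although each derivative library was above the LC2 library of its letter. The rise in PR2 was 1.78 ± 0.55 on the log2 scale (limma adjusted p = 0.042). The TYMS call was lost in 4 of 9 fits that each left out 1 library (LC2 B, LC2 C, PR2 A or PR2 C) and the ANLN call in 6 (those 4, PR1 A or PR1 C), with limma adjusted p up to 0.10 and 0.15. With no filter on low values both calls were lost (limma adjusted p = 0.061 and 0.085), while 19% of all rows passed.

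No member fell in PR2 by the test. All 3 PR2 libraries were below all 3 LC2 libraries for MCM2, MCM5, MCM7, E2F1 and E2F2 (5 of 22) and, in mitosis, for CDC25B (1 of 33), against 17.6% of all rows, so the replication share is near that of all rows. MCM7 read 139, 127 and 122 FPKM in LC2 and 111, 109 and 119 in PR2. E2F1, an activator of S phase genes, read 22.3, 18.6 and 16.0 in LC2 and 14.3, 12.0 and 11.3 in PR2 (log2 −0.56 ± 0.23, limma adjusted p = 0.12). The gaps between the nearest libraries of the groups were small for both.

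CDC25B, a phosphatase that activates CDK1, was level in LC2 at 59.0, 60.1 and 57.2 FPKM and lower in PR2 at 49.5, 32.0 and 29.3. PR1 spread around the LC2 values, at 78.4, 45.5 and 61.2. PR2 A lay within the PR1 range, and PR2 B and C lay below it. The CDC25B difference between PR2 and LC2 was −0.69 ± 0.23 (limma adjusted p = 0.057). AURKB, the kinase of the chromosomal passenger complex, was the other gene with separate groups and higher values in PR2, at 25.5, 19.2 and 12.4 FPKM in LC2 and 64.9, 28.0 and 27.8 in PR2 (log2 0.98 ± 0.39, limma adjusted p = 0.099). Such a separation upward, shown by TYMS and AURKB, occurred in 22.3% of all rows. Without the A libraries, TYMS, AURKB, the CENPE row and ANLN passed upward and CDC25B downward, with limma adjusted p of 0.0056, 0.026, 0.035, 0.0039 and 0.0091. These are 5 of 55 members, beside 28.2% of all rows.

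MKI67 and PCNA (the sliding clamp of DNA polymerases) had close to the same mean in PR2 and LC2. MKI67 was at 32.0, 10.2 and 12.0 FPKM in PR2 (log2 0.05 ± 0.51 against LC2, limma adjusted p = 0.96). PCNA was at 137, 88.5 and 70.4 in LC2 and 98.3, 86.2 and 95.9 in PR2 (log2 −0.02 ± 0.27, limma adjusted p = 0.96). The PCNA values of PR2 spread over 6.44 FPKM (SD, n = 3) and those of LC2 over 34.5.

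**Figure D3:**
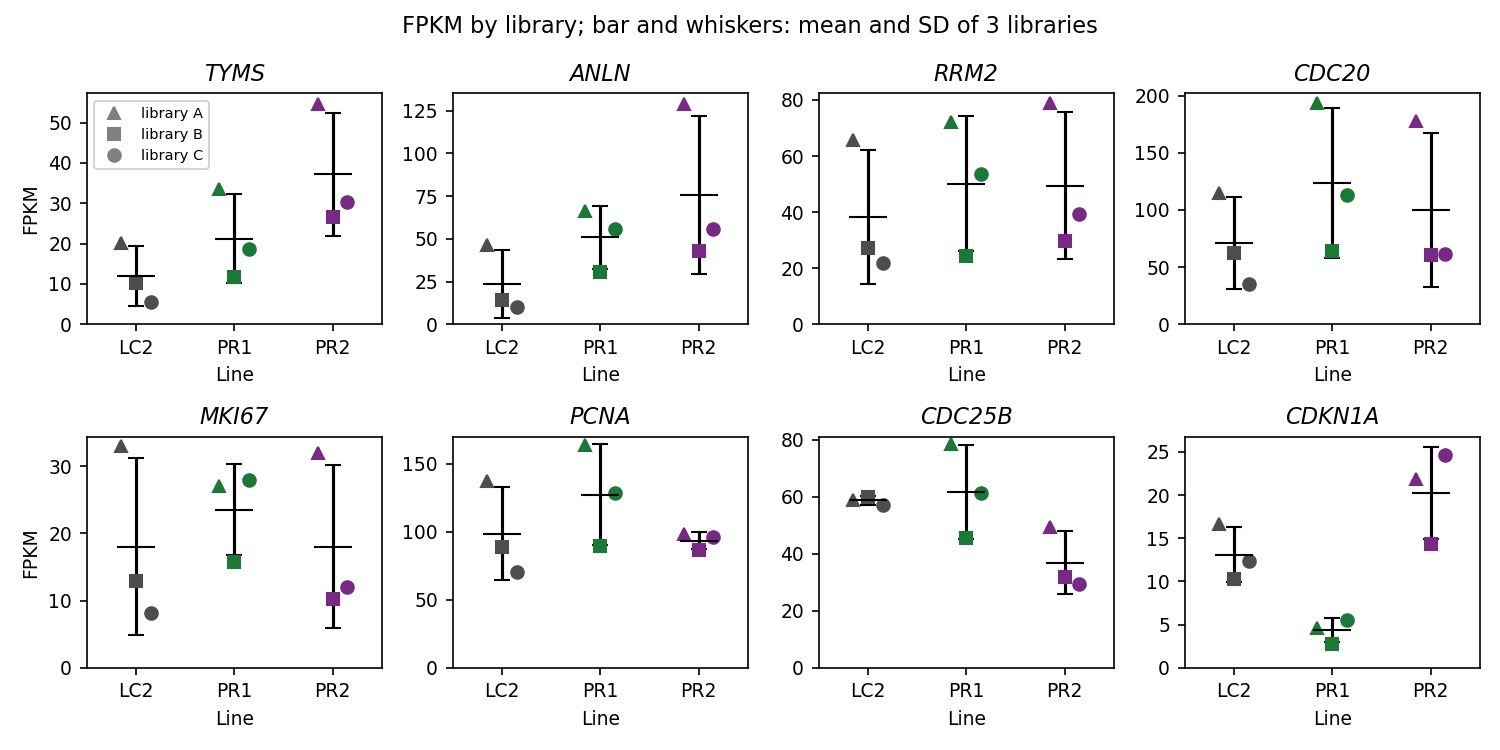
FPKM (y axis, from 0) of 8 genes in LC2, PR1 and PR2; triangles, squares and circles are libraries A, B and C, and bars with whiskers are the mean and SD of 3 libraries. TYMS and ANLN step up from LC2 (12.0 and 23.6 FPKM) to PR2 (37.2 and 75.9), CDKN1A is lowest in PR1 (4.34), and the A library is highest in every line for TYMS, ANLN, RRM2, CDC20 and PCNA.

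PR2 against PR1 sets the derivatives beside each other, both grown in the drug. Fitted without a term for the letter, none of the members passed (0 of 22 and 0 of 33, limma adjusted p under 0.05), while 19.9% of all rows did (11% higher and 8.92% lower in PR2). At an unadjusted p under 0.05 (limma) there were 3 replication genes and 1 mitosis gene, against 4041 of 12011 rows. The median log2 difference, PR2 minus PR1, was −0.35 for replication (16 of 22 below 0) and −0.15 for mitosis (22 of 33 below 0). Over all 12011 rows it was 0.00 (5958 below 0).

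The lowest adjusted p belonged to CDC25B (log2 −0.73 ± 0.23, limma adjusted p = 0.053) and E2F1 (−0.68 ± 0.23, limma adjusted p = 0.065). By size of the difference, the next lower values in replication were those of CDC25A, a phosphatase that activates CDK2, and MCM6 at −0.62 and −0.54, and in mitosis those of CCNB1 and FOXM1 at −0.70 and −0.54. On the other side were TYMS at 0.83, CDC6 (the loader of MCM helicases) at 0.38 and TK1 at 0.32, and in mitosis TOP2A (topoisomerase II alpha) at 0.69, AURKB at 0.60 and ANLN at 0.48. CDT1, the partner of CDC6 in licensing, and E2F2 were the only members with all 3 PR2 libraries below all 3 PR1 libraries, against 18.2% of all rows, and none had them all above, against 20.4%. CDT1 read 39.4, 24.4 and 29.7 FPKM in PR1 and 22.9, 22.1 and 20.8 in PR2.

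Same-letter deviations of PR2 and PR1 also correlated over all rows, at 0.53, 0.54 and 0.25 for A, B and C. In C the class means of the members again went opposite ways. PR2 C lay below its line mean (replication 4.50 against 4.54, mitosis 4.79 against 5.08) and PR1 C above its own. With the letter as a block, 31.5% of all rows passed. TYMS and AURKB were then higher in PR2 (limma adjusted p = 0.029 and 0.025), and MCM3, E2F1, CDC25A, CCNB1 and CDC25B were lower (limma adjusted p = 0.045, 0.019, 0.015, 0.029 and 0.016). Without the A libraries CDC25B alone among the 55 passed (log2 −0.77 ± 0.18, limma adjusted p = 0.024), beside 19.8% of all rows. Within single letters the replication median was −0.50 in A, 0.08 in B and −0.44 in C, and the mitosis median was 0.23, −0.05 and −0.52.

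**Figure D4:**
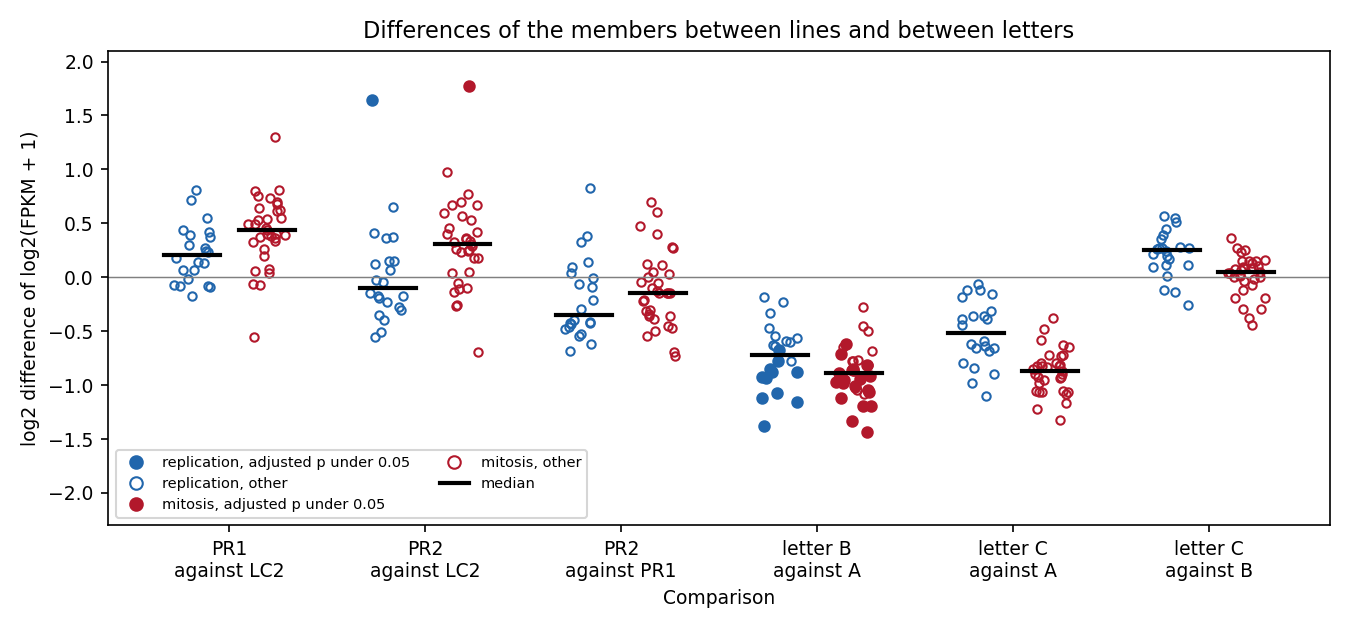
Log2 difference of each member (y axis, log2(FPKM + 1) scale) in the 3 comparisons of lines and the 3 of letters, replication in blue and mitosis in red, with filled points for a limma adjusted p under 0.05 and bars for medians. Filled points are TYMS and ANLN in PR2 against LC2 and 30 genes in letter B against A, where both medians lie below 0 (−0.72 and −0.89).

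Between letters the calls were many. In letter B against A, with the line as a term of the fit, 11 of 22 replication and 19 of 33 mitosis genes were lower in B and none was higher (limma adjusted p under 0.05). Over all rows 11.6% passed, 3.9% higher and 7.66% lower. With no filter on low values, which tests 18691 rows, limma called no member and no row at all, and the 30 genes called here had limma adjusted p of 0.068 to 0.12. At an unadjusted p under 0.05, 17 replication and 31 mitosis genes were then lower in B, against 14.1% of all rows. The median log2 difference, B minus A, was −0.72 for replication and −0.89 for mitosis, beside −0.07 for all rows. All 55 differences were below 0, against 6933 of 12011 rows. A was above B in each line for 52 of 55 members, all but CDT1, CDC25B and the CENPE row, against 33.1% of all rows. The calls needed both derivatives. Without PR1 or without PR2 limma called no member (1 and 40 rows passed in all), with 38 and 42 of 55 lower at an unadjusted p under 0.05, against 13% and 11.6% of all rows. Without LC2, 9 replication and 23 mitosis genes passed, with 9.9% of all rows.

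The depth of the libraries moved with the letters. A was deeper than B in every line, and PR1 C, at 0.976 of LC2 A, stood nearer to PR1 A than to PR1 B in depth and in the means of both classes. FPKM values are already scaled to depth, and the part of depth in these differences was not tested. In LC2, C was slightly deeper than B and both class means were lower in C.

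In origin licensing CDC6, MCM3 and MCM4 were lower in B (3 of 8). CDC6 was at 28.7, 13.7 and 17.9 FPKM in LC2 A, B and C, 31.6, 10.3 and 20.6 in PR1, and 35.3, 18.1 and 24.3 in PR2. The order A, C, B was the same in all 3 lines, and every A value was above every B and C value (B against A: log2 −1.16 ± 0.15, limma adjusted p = 0.022). MCM4 differed by −0.94 ± 0.18 (limma adjusted p = 0.025), while CDT1 and MCM7 differed least, by −0.18 and −0.33.

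Of the helicase activation and fork genes, MCM10, CDC45, GINS1 and GINS2 were lower in B and PCNA was at −0.56 (limma adjusted p = 0.096). CDC45 was at 22.0, 13.5 and 11.9 FPKM in LC2, 25.6, 8.04 and 14.2 in PR1, and 24.4, 11.8 and 14.1 in PR2. Each A library lay well above the B and C libraries of every line (B against A: −1.07 ± 0.18, limma adjusted p = 0.022).

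In nucleotide supply RRM1, RRM2 and TYMS were lower in B (3 of 4). RRM2, the small subunit of ribonucleotide reductase, had the largest difference of the class. It read 65.6, 27.2 and 21.8 FPKM in LC2, 72.3, 24.5 and 53.6 in PR1, and 79.1, 29.9 and 39.5 in PR2, with all A values above all others (B against A: −1.38 ± 0.23, limma adjusted p = 0.022). TK1 was at −0.59 and missed the threshold (limma adjusted p = 0.12). Among the S phase entry regulators CDC25A passed (−0.85 ± 0.15, limma adjusted p = 0.022), and E2F1, E2F2, CCNE1 and CCNE2 lay between −0.77 and −0.23.

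Among mitotic cyclins, their kinase and its phosphatases, CDK1, CCNB1, CCNB2 and the row of CCNA2 were lower in B (4 of 6, log2 −1.196 to −0.71), and CDC25B and CDC25C did not pass. The transcription factors FOXM1 and MYBL2 were both lower in B, at −1.06 ± 0.18 and −1.01 ± 0.22 (limma adjusted p = 0.022 and 0.031). FOXM1 was at 43.2, 23.3 and 19.0 FPKM in LC2, 54.5, 25.9 and 38.7 in PR1, and 47.7, 19.0 and 18.7 in PR2. B and C were alike in PR2, while in PR1 C lay between A and B.

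Of 6 mitotic kinases 5 were lower in B (PLK1, AURKA, AURKB, BUB1 and the row of BUB1B), and TTK missed the threshold (limma adjusted p = 0.067). PLK1, the Polo kinase of mitotic entry, read 87.2, 51.0 and 34.7 FPKM in LC2, 104, 46.1 and 75.4 in PR1, and 125, 45.9 and 46.0 in PR2 (B against A: −1.12 ± 0.23, limma adjusted p = 0.028). The A libraries were the highest of all 9.

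CDC20 and BIRC5 (survivin, of the chromosomal passenger complex) were lower in B among 5 genes of the checkpoint, anaphase and passenger group. CDC20 was at 115, 62.5 and 35.5 FPKM in LC2, 194, 64.0 and 113 in PR1, and 178, 60.8 and 61.4 in PR2, a difference of −1.33 ± 0.26 (limma adjusted p = 0.025). B values lay within a few FPKM of each other in the 3 lines, whereas the C values were spread between 35.5 and 113. CENPA, the histone of the centromere, was the 1 of 3 centromere and kinetochore genes that passed (−0.98 ± 0.17), TPX2 and HMMR the 2 of 5 spindle genes, and KIF23 (a kinesin of the midbody) and ANLN the 2 of 4 cytokinesis genes. ANLN had the largest difference of all 55 members (−1.44 ± 0.29, limma adjusted p = 0.027). MKI67 was at −1.196 ± 0.31 (limma adjusted p = 0.047) and TOP2A was at −1.03 (limma adjusted p = 0.053).

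**Figure D5:**
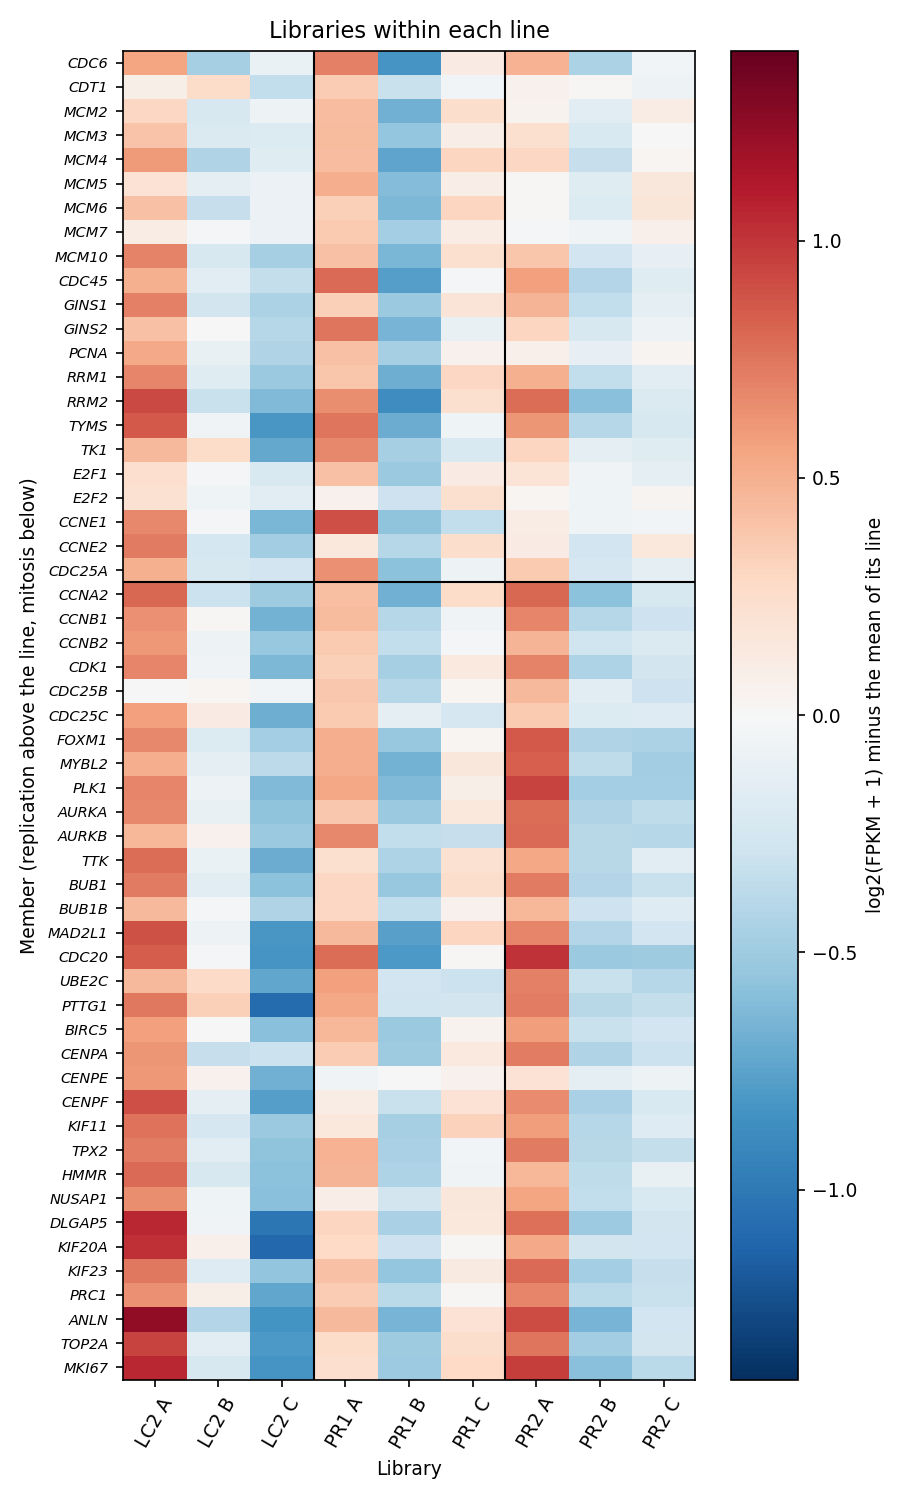
Heat map of the 55 members (rows, replication above the horizontal line) in the 9 libraries (columns), coloured by log2(FPKM + 1) minus the mean of the gene's line; CCNA2, BUB1B and CENPE stand for combined rows. The A columns are mostly red, B is the lowest column in PR1 for 52 of 55 members and C the lowest in LC2 for 48 of 55.

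Library A was the highest of its line in all 3 lines for 15 of 22 replication and 27 of 33 mitosis genes, against 13.9% of all rows. In single lines A was highest for 53 of 55 in LC2, 48 in PR1 and 49 in PR2, against 39.6%, 41.1% and 45.9% of all rows. For 6 and 19 of them every A value was above every B and C value, against 4.04% of all rows. In PR2 all 33 mitosis genes were highest in A, but 6 replication genes, MCM2, MCM5, MCM6, MCM7, E2F2 and CCNE2, were highest in C (28.7% of all rows). In PR1, where C was highest in 32.8% of all rows, the 7 members highest in C were E2F2 and CCNE2 and, in mitosis, the CENPE row, CENPF, KIF11, NUSAP1 and MKI67. In LC2 only CDT1 and CDC25B were not highest in A.

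Library C changed its place between the lines. Letter C against A gave no call among the members or over all rows (0% of all rows, limma adjusted p under 0.05). The lowest limma adjusted p of a member was 0.080. At an unadjusted p under 0.05 (limma), 12 of 22 and 31 of 33 members were lower in C. Over all 12011 rows 2447 reached that threshold, 1455 of them lower in C. The median was −0.52 for replication and −0.87 for mitosis, and all 55 differences were below 0, against 6228 of 12011 rows. TYMS (−1.10 ± 0.24) and RRM2 (−0.98 ± 0.23) led the first class, and CDC20 (−1.32 ± 0.26), PTTG1 (−1.22 ± 0.27) and ANLN (−1.17 ± 0.29) the second. Letter C against B gave no call either (0% of all rows, medians 0.25 and 0.05). At an unadjusted p under 0.05 (limma), 4 replication and 0 mitosis genes differed, against 1888 of 12011 rows. These 4 were in origin licensing, where 7 of 8 genes lay higher in C, with CDC6 at 0.57, MCM4 at 0.55 and MCM6 at 0.52. Over all rows 6902 of 12011 differences were above 0, and 1248 of the 1888 rows were higher in C.

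In LC2, library C was lowest for 16 of 22 replication and 32 of 33 mitosis genes (29.6% of all rows), but B was lowest for CDC6 and MCM2 to MCM6 (6 of 22, 41.1% of all rows) and for CENPA. Class means there differed, C minus B, by −0.20 for replication and −0.57 for mitosis. In PR1 B was lowest for 22 of 22 and 30 of 33 (39.7% of all rows), and the same differences were 0.68 and 0.52, and in PR2 0.19 and 0.10. The balance of the classes moved as well. Mitosis minus replication, in mean log2(FPKM + 1), was 0.48, 0.33 and −0.04 in LC2 A, B and C, 0.35, 0.60 and 0.45 in PR1, and 0.96, 0.38 and 0.30 in PR2, so the extremes were LC2 C and PR2 A. With 1 library per line and letter these values have no replicates.

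Other genes of the same machinery, in lists chosen by function with earlier results of these data known, were also lower in B than in A. This held for 26 of 46 other replication genes and 23 of 50 tested other mitosis genes, and none was higher (limma adjusted p under 0.05). Over all rows 7.66% were lower and 3.9% higher. With no filter on low values none of these genes passed. Their medians were −0.64 and −0.80. CLSPN (claspin, a checkpoint adaptor at the fork) was at −1.24 and ORC1 (of the origin recognition complex) at −1.07, and NCAPG (a condensin subunit) and CEP55 (an abscission factor) were at −1.27 and −1.25. Between lines, none of these genes passed in PR1 against LC2, beside 15.5% of all rows. In PR2 against LC2, RPA1 (the large subunit of the single-strand binding protein) and NDC80 (the microtubule-binding kinetochore protein) rose. These were 1 of 46 and 1 of 50, beside 23.4% of all rows. NDC80 read 11.4, 6.28 and 5.01 FPKM in LC2, 15.9, 7.85 and 12.9 in PR1, and 32.1, 17.0 and 18.1 in PR2 (log2 1.46 ± 0.34 against LC2, limma adjusted p = 0.011). RPA1 rose by 0.85 ± 0.22 (limma adjusted p = 0.021). With the letter as a block, 2 other replication and 14 other mitosis genes passed in PR1 against LC2, beside 25.7% of all rows. Without the A libraries 0 and 9 did, beside 20.1%. Taken without regard to direction, the mitosis shares are near those of all rows. The calls of these genes were all higher in PR1, whereas the shares of all rows count both directions. The row that holds SPAG5 with KIAA0100 and SGK494 was higher in PR2 than in PR1 by 0.83 ± 0.24 (limma adjusted p = 0.035), and under the block 2 other replication genes were higher and 6 lower there, and 4 other mitosis genes higher and 4 lower, with 31.5% of all rows. With no filter on low values the call of the SPAG5 row was lost (0 of 50 other mitosis genes, beside 13.8% of all rows).

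Single brakes of the cycle (inhibitors and repressors, among them CDK inhibitors, pocket proteins and repressor E2Fs, but also CCNG1, BTG2 and PKMYT1) differed between lines. In PR1 against LC2, 2 of 23 tested rose and 2 fell, near the 15.5% of all rows (7 and 2 with the letter as a block, where 25.7% of all rows passed). In PR2 against LC2 1 rose and 2 fell, against 23.4%. CDKN1A (p21, the p53-induced CDK inhibitor) was at 16.6, 10.3 and 12.4 FPKM in LC2, 4.66, 2.81 and 5.56 in PR1, and 21.8, 14.4 and 24.6 in PR2. All PR1 values were below all others, and those of PR2 and LC2 overlapped. It fell by 1.41 in PR1 (± 0.26, limma adjusted p = 0.0059) and was higher in PR2 than in PR1 by 2.00 ± 0.26 (limma adjusted p = 0.00074). Against LC2 the PR2 difference was 0.58 ± 0.26 (limma adjusted p = 0.14).

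CCNG1 (cyclin G1, another p53 target) fell in both derivatives, from 61.7 ± 6.42 FPKM in LC2 to 36.2 ± 1.77 in PR1 and 41.1 ± 2.68 in PR2 (SD, n = 3; log2 −0.75 and −0.57, limma adjusted p = 0.0055 and 0.014). CDKN2C (p18, an inhibitor of CDK4 and CDK6) rose in PR1 by 1.16 ± 0.32 (limma adjusted p = 0.033), as did the combined row of E2F5 and CA13, by 0.82 ± 0.23 (limma adjusted p = 0.034). Both rises were lost with no filter on low values, where 0 of 23 brakes rose and 2 fell, beside 12.5% of all rows. Fitted on PR1 and LC2 alone, 1 rose and 2 fell, beside 12.8%. In PR2 against LC2, E2F7, a repressor E2F, rose by 1.26 ± 0.27 (limma adjusted p = 0.0080), from 0.729 ± 0.425 to 3.24 ± 1.54 FPKM (SD, n = 3). BTG2, an antiproliferative p53 target, fell by 0.93 in PR2 against LC2 (± 0.23, limma adjusted p = 0.015). Between the derivatives 3 of 23 brakes were higher in PR2 and 2 lower, near the 19.9% of all rows (4 and 4 with the block, near its 31.5%). With no filter on low values 2 were higher and 0 lower, beside 13.8% of all rows. Across letters 6 of 23 brakes were lower in B than in A, against 7.66% of all rows, among them E2F7, E2F8, PKMYT1 (an inhibitory kinase of CDK1) and CDKN1A itself (−0.59 ± 0.15, limma adjusted p = 0.041). With no filter on low values no brake passed there. CDKN2A and CDKN2B were listed at 0 in every library.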

How the data were processed

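RNA from 9 libraries was sequenced (column-isolated RNA and a TruSeq kit, per the labels' protocols). GRCh37 and hg19 are the builds, and TopHat2 (2.0.14), Cufflinks (2.2.1) and Cuffdiff (2.2.1) the tools, in the submitters' processing notes. The deposited values were taken as FPKM. No header names the unit, which was inferred from Cufflinks and from steps between values that scale with gene length. Read totals were not analysed here, so depth is relative only.

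Values were analysed as log2(FPKM + 1) in R 4.3.3 with limma 3.58.1 and an intensity trend, two-sided, over the 12011 rows that reached 1 FPKM in 3 or more of 9 libraries. P-values were adjusted by Benjamini-Hochberg over all of them. Fold changes on this scale understate the change of low genes. Lines were fitted as 1 mean per group, with no term for the letter in the main fits. Letters were fitted with line and letter as terms. The fits were tested on simulated data with noise drawn independently for each library. Such data hold no deviations shared by libraries of the same letter, so they do not show how the line fits behave with them.

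Same-letter deviations correlated across rows in PR1 and LC2 (0.31, 0.48 and 0.16 for A, B and C), as they did between PR2 and PR1 (0.53, 0.54 and 0.25), so these were taken as pairs. In PR2 and LC2 the C libraries did not (0.30, 0.42 and 0.014).

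The members and all lists were chosen with earlier results of these data known. Named genes were the called members of a class, at most 6 by size, or the 3 largest in each direction where none was called, at most 5 called genes of each other list, and CDKN1A, MKI67 and PCNA. Genes named because their groups did not overlap, as the most or least expressed, by role or for the lowest adjusted p were added after their values were seen. Motifs were searched in RefSeq sequences of GRCh38.p14, a build other than that of the files, with which no coordinates were exchanged. Alternatives covered the pseudocount, the filter, quantile normalization, the trend, the letter block, the groups fitted and libraries left out.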

Additional observations from a re-analysis of the deposited data

Results flagged for a closer look

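PR2 and PR1 differed in their distance from LC2 for 6 genes or rows of the wider lists, by the limma test of PR2 against PR1. They were 0 of 46 other replication genes, 1 of 50 tested other mitosis genes and 5 of 23 tested brakes, beside 19.9% of all rows. The log2 difference, PR2 minus PR1, was 2.00 for CDKN1A, and PR2 was also higher for the row of SPAG5 by 0.83, RBL2 (p130, a pocket protein) by 0.67 and E2F6 (a repressor E2F) by 0.54. BTG2 was lower by 0.85 (−0.85) and the row of E2F5 and CA13 by 0.82 (−0.82). None of the 55 members was among them in this fit, which has no term for the letter. With the letter as a block, 4 replication and 3 mitosis genes passed in PR2 against PR1, beside 31.5% of all rows. With no filter on low values 2 of 23 brakes were higher in PR2 and 0 lower, beside 13.8% of all rows. The 50 tested other mitosis genes then gave 0 calls. The calls of BTG2 and of the rows of E2F5 and SPAG5 were thus lost.

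The distance of library C from library B had opposite signs in LC2 and PR1. For replication genes the class mean, C minus B, was −0.20 in LC2 and 0.68 in PR1, and for mitosis genes −0.57 and 0.52. Each value compares 1 library with 1 library, and the difference between the lines was not tested.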

How the results depend on the processing

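Precision is limited by 3 libraries per line. Without a filter on low values TYMS and ANLN were lost in PR2 against LC2 (0 and 0 called), while 3550 rows (19%) passed there. Letter B against A then had 0 replication, 0 mitosis and 0 rows called in all. The cause was not tested. In PR2 against LC2, where the letters were not taken as pairs, the replicate block gave 3 replication and 5 mitosis calls (4113 rows in all, 34.2%), of which E2F1 and CDC25B were lower in PR2. In PR1 against LC2 it gave 2 and 3 (3088 rows, 25.7%) and in PR2 against PR1 4 and 3 (3789 rows, 31.5%). Without the 3 A libraries the mitosis calls were 5, 4 and 1 in PR1 against LC2, PR2 against LC2 and PR2 against PR1, with 1, 1 and 0 replication calls and 20.1%, 28.2% and 19.8% of all rows. CCNE2, HMMR and CDC25C then changed sign in PR1 (0.21, 0.089 and 0.041), as did PCNA in PR2 (0.20).

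Quantile normalization gave 1 replication and 2 mitosis calls in PR2 against LC2 (24.6% of all rows), 1 and 1 in PR2 against PR1 (21%) and 8 and 11 in letter B against A (8.58%), and turned MKI67 (−0.038) and PCNA (0.084) in PR2 against LC2. Fitting LC2 and PR2 alone kept TYMS, lost ANLN and called CDC25B, beside 21% of all rows. A filter at 5 FPKM, which tests fewer rows, gave 1207, 1811 and 1573 rows in the 3 comparisons of lines. A pseudocount of 0.1 gave 1 row in letter C against A. There CDKN1A, near 0, turned to 0.00073 with it and to 0.0068 with quantile normalization. With the start window cut to 100 bases before, E2F spellings were in 2.78% of mitosis starts.

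Leaving out 1 library at a time, all rows called ranged over 1141 to 2027 in PR1 against LC2, 1805 to 2922 in PR2 against LC2 and 1420 to 2446 in PR2 against PR1. Replication calls ranged over 0 to 1, 0 to 2 and 0 to 5, and mitosis calls over 0 to 3, 0 to 4 and 0 to 1. Signs turned for CCNE2 (−0.33 to 0.28), CDC25C (−0.41 to 0.22), HMMR (−0.35 to 0.33), MCM2 (−0.30 to 0.25) and TK1 (−0.53 to 0.063) in PR1 against LC2, for MKI67 (−0.44 to 0.58) and PCNA (−0.24 to 0.24) in PR2 against LC2 and for CDC6 (−0.030 to 0.74) in PR2 against PR1. None of these had passed the test. Leaving out 1 line, letter B against A had 1 to 1189 rows, 0 to 9 replication and 0 to 23 mitosis calls, letter C against A 0 to 31 rows, and letter C against B 1 to 3. CDKN1A turned in letter C against A (−0.11 to 0.19). In letter C against B, ANLN (−0.028 to 0.62), CCNE1 (−0.29 to 0.12), CDT1 (−0.34 to 0.10), MKI67 (−0.20 to 0.50), PCNA (−0.086 to 0.33), PTTG1 (−0.69 to 0.036) and TK1 (−0.51 to 0.10) did so.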
